A study of Mus musculus with 6 samples.

Results

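The 4 genes described here, 3830406C13Rik, Arf5, Rbm28 and Zfp503, lie on the chromosomes of the targeted loci in mouse embryos that lack both Fezf1 and Fezf2. Fezf1 is on chromosome 6 and Fezf2 on chromosome 14. The members were chosen by a readout of these same arrays: a gene had to differ between knockout and wild type in the fit across ages and to lie near Fezf1 or Fezf2. They are 4 of 18194 measured genes, and 8 probe sets name them and no other gene. Their genotype values are therefore given as a description with no test. The change with age is tested, but its fit has the same residual spread as the genotype fit used in the choice.

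Rostral forebrain was compared between Fezf1-/- Fezf2-/- embryos (the knockout) and wild-type embryos at E9.5, E10.5 or E12.5, where E is the embryonic day. Each of the 6 groups is 1 Affymetrix array, hybridised with biotin-labelled RNA from forebrain cut by hand at the caudal limit of the lateral ventricle. No group has a replicate, and the labels give neither a strain nor the number of embryos behind an array. Both loci were targeted in every knockout array, so for each gene linkage to the targeted locus on its own chromosome and loss of either protein cannot be told apart here. The tissue is bulk, so a lower signal from fewer cells of a type and one from less RNA per cell cannot be told apart either.

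Fezf1 and Fezf2 are zinc-finger repressors of the early forebrain. Genes that sit beside a targeted gene are inherited with it, so a knockout line is selected for the surrounding stretch of chromosome as well as for the targeted allele. A probe set is a group of short oligonucleotides that reads 1 stretch of a transcript, and several probe sets of a gene are separate readings of it, which were compared with each other.

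The members do different work in the cell. 3830406C13Rik is a protein-coding gene still known by its clone name. Arf5 encodes an ADP-ribosylation factor, a small GTPase that recruits coat proteins to membranes of the Golgi and the early secretory pathway. Rbm28 encodes a nucleolar RNA-binding protein whose yeast relative acts in assembly of the large ribosomal subunit. Zfp503, also called Nolz1, encodes a zinc-finger repressor of the NET family that marks the embryonic striatum in mouse. In the order of measured genes on GRCm38.p6, 3830406C13Rik is the gene next to Fezf2, 1 place away, and Zfp503 is 54 places away on the other side. Arf5 and Rbm28 stand 21 and 27 places from Fezf1, on the same side of it. 3830406C13Rik and Fezf2 lie on opposite strands, with their 3′ ends facing each other.

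The promoter of each member is printed 5′ to 3′ on the strand of the gene, to show the start region that belongs to each gene alone. Each runs from 250 bases before to 50 bases after the start of the gene and comes from RefSeq (GRCm38.p6). The positions are chr14:12283953-12284252 (plus strand) for 3830406C13Rik, chr6:28423354-28423653 (plus strand) for Arf5, chr6:29164675-29164974 (minus strand) for Rbm28 and chr14:21989552-21989851 (minus strand) for Zfp503. Capitals mark TGACGT on either strand (ACGTCA when it is on the other one), the core of the cAMP response element, and were placed after the sequences had been read.
3830406C13Rik: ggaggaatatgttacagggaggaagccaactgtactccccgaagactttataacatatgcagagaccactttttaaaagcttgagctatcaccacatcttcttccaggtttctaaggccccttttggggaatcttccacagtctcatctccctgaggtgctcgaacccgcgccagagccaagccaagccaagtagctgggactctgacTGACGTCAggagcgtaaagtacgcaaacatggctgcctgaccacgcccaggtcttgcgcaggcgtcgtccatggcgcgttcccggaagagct
Arf5: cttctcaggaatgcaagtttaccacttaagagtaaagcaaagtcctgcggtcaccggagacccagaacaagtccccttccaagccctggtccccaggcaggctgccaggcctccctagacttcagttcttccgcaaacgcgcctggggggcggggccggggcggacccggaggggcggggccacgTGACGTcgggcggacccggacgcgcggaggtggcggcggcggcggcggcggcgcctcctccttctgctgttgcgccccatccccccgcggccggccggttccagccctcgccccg
Rbm28: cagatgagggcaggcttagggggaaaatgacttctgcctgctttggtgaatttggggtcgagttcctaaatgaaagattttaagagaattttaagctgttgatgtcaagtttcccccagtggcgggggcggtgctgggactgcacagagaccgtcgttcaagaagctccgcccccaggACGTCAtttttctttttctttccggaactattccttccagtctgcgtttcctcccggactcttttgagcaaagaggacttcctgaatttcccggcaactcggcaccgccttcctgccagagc
Zfp503: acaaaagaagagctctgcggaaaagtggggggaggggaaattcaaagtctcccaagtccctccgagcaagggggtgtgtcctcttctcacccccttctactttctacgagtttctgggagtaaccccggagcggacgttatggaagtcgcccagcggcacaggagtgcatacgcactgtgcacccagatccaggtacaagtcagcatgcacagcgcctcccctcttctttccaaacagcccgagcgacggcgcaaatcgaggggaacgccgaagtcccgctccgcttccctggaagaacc

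The motif stood in the start regions of 3 members. In 3830406C13Rik its 2 matches overlapped to form the full palindrome TGACGTCA, and Arf5 and Rbm28 held 1 match each. Zfp503 held none, and neither did the promoters of Fezf1 and Fezf2. Of 27025 genes with a listed promoter, 8.37% hold TGACGT on either strand and 2.03% hold the palindrome. These are matches of letters in a window and say nothing of binding. The motif was marked after the members' sequences had been read, so its share among them cannot be tested against these backgrounds. The window held 14 CG dinucleotides in 3830406C13Rik, 32 in Arf5, 13 in Rbm28 and 19 in Zfp503, against a promoter median of 7. In the same order, 63.1%, 90.8%, 61.5% and 71.6% of promoters held fewer.

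Values are quantile-normalized signal, a linear scale on which the median of all values is 24.0, and differences are knockout minus wild type on the scale log2(signal + 6.50), which shrinks the folds of dim probe sets. Of 8 forebrain markers 7 were measured, and all 7 lay above the median on all 6 arrays, with a summed signal of 3391, 3450 and 6261 in the knockout and 3897, 4508 and 5916 in wild type, here and below in order of age. The sum of 5 head mesenchyme markers was 3353, 3711 and 1065 in the knockout and 2492, 3458 and 1516 in wild type, and that of 4 caudal Hox genes lay between 26.8 and 65.4 on every array. Within the forebrain list the markers did not move together, since at E10.5 Emx2 and Lhx2 were lower in the knockout (183 and 364, against 395 and 766 in wild type) and Otx2 was higher (649 against 416). The sum of 4 surface ectoderm markers was 911, 1097 and 68.8 in the knockout and 797, 842 and 89.4 in wild type, and that of 4 erythroid markers was 17392 in the knockout and 13936 in wild type at E12.5. Xist, which coats and silences an X chromosome, had 453, 11.7 and 17.6 in the knockout and 725, 573 and 9.87 in wild type. Its signal differed between genotypes at E10.5 and between E9.5 and E12.5 in both genotypes. The 3 Y-linked genes measured lay above the median on all 6 arrays. Kdm5d had 124, 155 and 166 in the knockout and 138, 102 and 151 in wild type. For Uty the values were 96.3, 101 and 95.6, and 89.8, 68.4 and 104. Those of Eif2s3y were 194, 243 and 164, and 168, 177 and 296. The part of these markers in the members' genotype values and age changes was not tested. Fezf2 was nearly absent from the knockout (0.458, 0.904 and 1.66, against 78.9, 146 and 249 in wild type). Fezf1 kept part of its signal (97.7, 78.4 and 49.5 in the knockout, against 251, 143 and 174 in wild type).

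3830406C13Rik, the immediate neighbour of Fezf2, was higher in the knockout than in wild type. Its brightest probe set, 1436388_a_at, had signals of 149, 192 and 173 in the knockout, against 45.2, 75.9 and 61.9 in wild type. The lowest knockout array stood above the highest wild-type array, and within both genotypes the E10.5 array was the highest of the 3. On the scale with the pseudocount the knockout was 3.004-fold, 2.41-fold and 2.62-fold higher, a mean difference of 1.41 ± 0.16 (SD of the 3 ages, log2). The suffix of this probe set means that its probes are shared by several transcripts of the gene.

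The second probe set of 3830406C13Rik read the same direction at a lower level. 1434550_at had signals of 58.8, 38.7 and 41.5 in the knockout, against 33.6, 17.6 and 30.2 in wild type. Here too the groups did not overlap, but the order of the ages was different, with E10.5 the lowest array of each genotype. The mean difference was 0.66 ± 0.26 (SD of the 3 ages, log2), smaller than that of 1436388_a_at at every age. The third, 1446135_at, was dim on all 6 arrays and lay under the filter for tested probe sets. It had signals of 8.71, 0.328 and 4.14 in the knockout and 0.782, 2.77 and 7.64 in wild type, which overlap and show no steady order.

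Arf5 was lower in the knockout, by a larger mean difference than Rbm28 or Zfp503. Its only probe set, 1422807_at, had signals of 18.2, 63.4 and 191 in the knockout, against 61.6, 244 and 380 in wild type. Each knockout array was below the wild-type array of its age, while across ages the groups overlapped because the signal climbed with age in both genotypes. On the scale with the pseudocount wild type was 2.75-fold, 3.58-fold and 1.95-fold above the knockout, and the mean difference was -1.42 ± 0.44 (SD of the 3 ages, log2). At E9.5 the knockout array lay below the median of all values. With a single probe set, there is no second reading of this gene in the table.

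Rbm28 gave opposite readings from its 2 probe sets. 1452091_a_at had signals of 268, 269 and 189 in the knockout, against 540, 425 and 303 in wild type. All 3 knockout arrays were below all 3 wild-type arrays, and the mean difference was -0.77 ± 0.20 (SD of the 3 ages, log2). 1426513_at had signals of 110, 126 and 80.7 in the knockout, against 94.3, 70.9 and 54.6 in wild type. By this probe set the knockout was the higher genotype at every age, with differences of 0.20, 0.77 and 0.51 and groups that overlapped across ages. Both probe sets are annotated to the same source sequence, and the files do not place them within the gene.

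Zfp503 was lower in the knockout by its brightest probe set. 1423835_at had signals of 490, 294 and 163 in the knockout, against 738, 467 and 262 in wild type. The genotypes ran in parallel, with differences of -0.58, -0.66 and -0.66 and the groups overlapping across ages. The mean difference of -0.63 ± 0.04 was the smallest of the 4 members and the steadiest between ages (SD of the 3 ages, log2). 1423836_at, from the same source sequence, had signals of 104, 102 and 34.1 in the knockout, against 99.98, 102 and 53.3 in wild type. The genotypes differed by 0.059 at E9.5 and -0.0021 at E10.5, and the knockout was lower at E12.5 by a difference of -0.56.

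**Figure D1:**
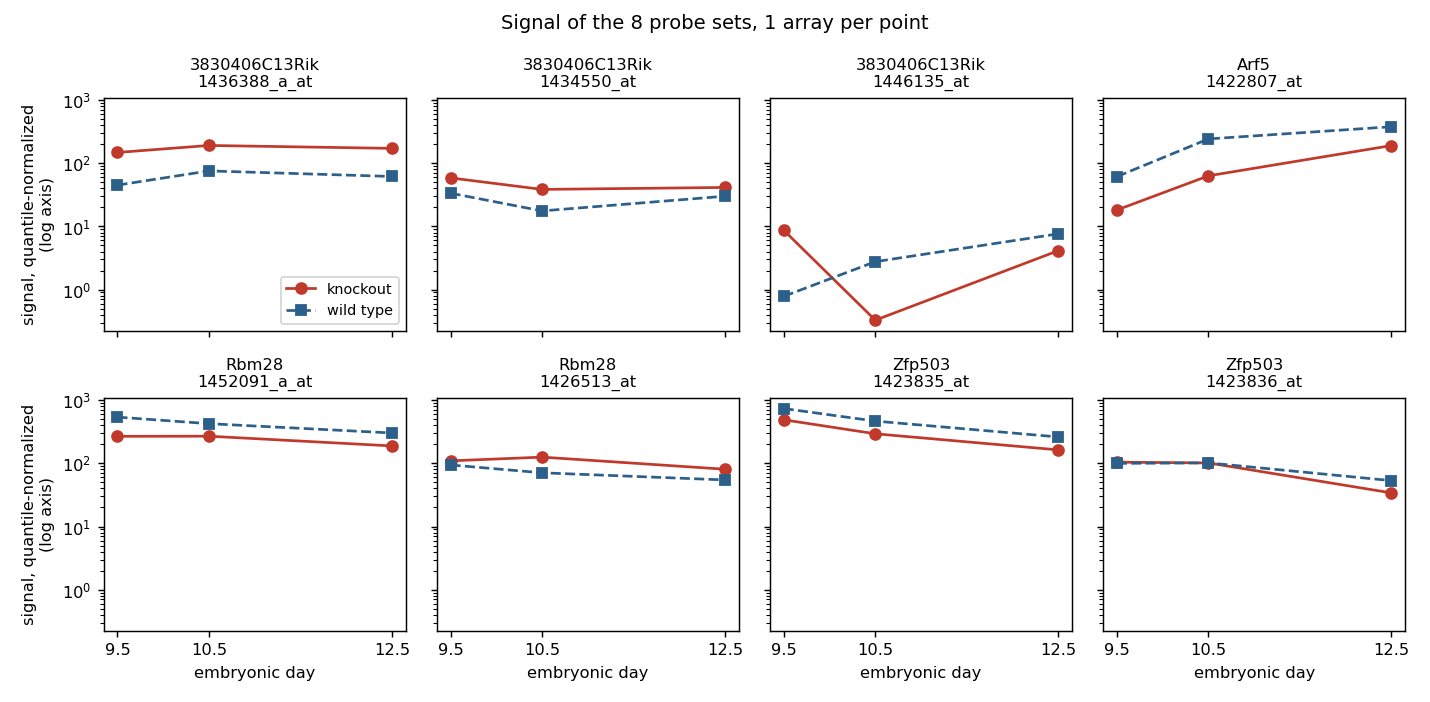
Quantile-normalized signal (log axis) of the 8 probe sets against embryonic day, 1 array per point, with the knockout as circles and wild type as squares. The knockout lines lie above wild type for 1436388_a_at and 1434550_at of 3830406C13Rik and 1426513_at of Rbm28, and below it for Arf5, 1452091_a_at of Rbm28 and 1423835_at of Zfp503.

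The choice rested on the brightest probe set of each gene. At gene level limma called 8 of 11097 tested genes at an adjusted p under 0.05 (0.0721%), 2 of them higher (0.018%) and 6 lower (0.0541%) in the knockout. The members are 4 of these 8, which is how they were chosen, and the other 4 are Fezf1, Fezf2, Apcdd1 and Ano1. Zfp503 was the last gene inside the threshold, with a mean difference of -0.63. The first genes outside it were Tcf12 with 0.38 and Ghitm with -0.51. Among 19593 tested probe sets 1.64% had 3 knockout arrays that did not overlap the 3 wild-type arrays. Of the 7 tested member probe sets this held for 1436388_a_at, 1434550_at and 1452091_a_at, and it is given as a description because the choice used the same contrast.

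**Figure D2:**
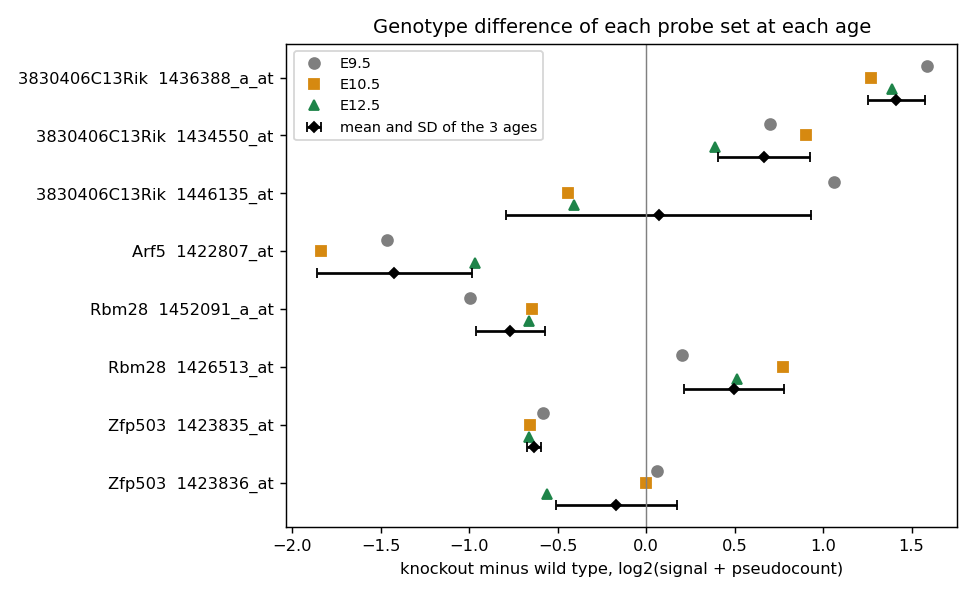
Knockout minus wild type on the log2(signal + pseudocount) scale for each of the 8 probe sets, with 1 symbol per age and a diamond with a bar for the mean and SD of the 3 ages. The means run from -1.42 for Arf5 to 1.41 for 1436388_a_at, and the 2 probe sets of Rbm28 lie on opposite sides of 0 at every age.

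Probe sets of a gene were then compared across the table. Of 5073 genes with at least 2 tested probe sets, the 2 brightest had mean genotype differences of opposite sign in 44.5%, a figure that includes the many genes whose differences lie near 0. Both kept the same single direction at all 3 ages in 206 genes (4.06%), and 3830406C13Rik is one of these. Each kept a direction at all ages, opposite to the other, in 104 genes (2.05%), and Rbm28 is one of these. The gap between the 2 mean differences was 1.26 for Rbm28, 0.75 for 3830406C13Rik and 0.47 for Zfp503, against a median of 0.11 and a 95th percentile of 0.43 over all 5073 genes. A smaller gap than that of Rbm28 was found in 99.9% of genes. Since each member was picked for a large value of its brightest probe set, a wide gap is partly fixed by the choice, and no test was made of it.

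**Figure D3:**
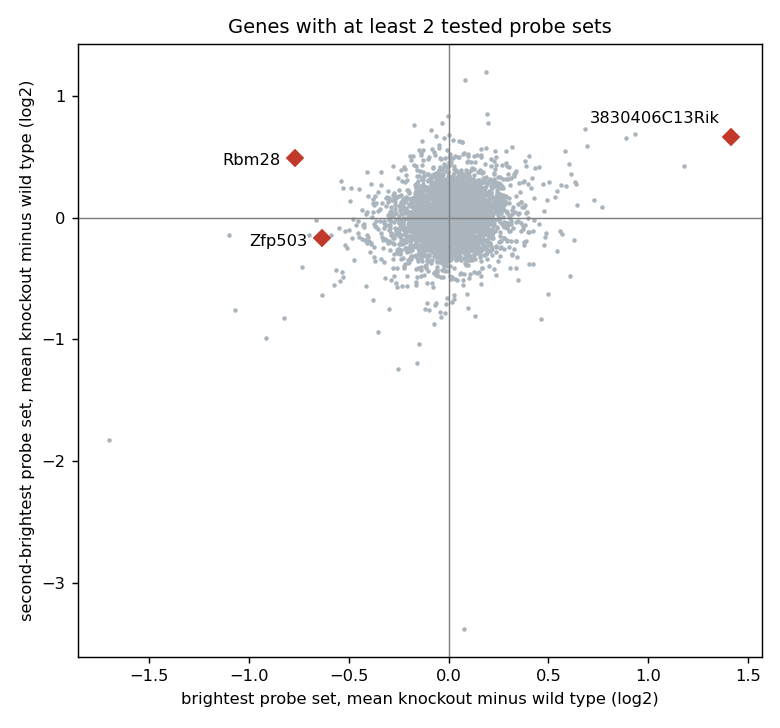
Mean knockout minus wild-type difference (log2) of the second-brightest probe set against that of the brightest, 1 point per gene with at least 2 tested probe sets. 3830406C13Rik lies in the quadrant where both are higher in the knockout (1.41 and 0.66), Zfp503 in the one where both are lower (-0.63 and -0.17), and Rbm28 in a quadrant of opposite signs (-0.77 and 0.50).

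The size and direction of the change with age were not used in choosing the members. The change was tested with limma on all 6 arrays with genotype as a block. This fit has the same residual spread as the genotype fit. The brightest probe sets, chosen for a small genotype p, therefore tend to have small SEs and p-values here too. From E9.5 to E12.5 limma called 5159 of 19593 probe sets higher (26.3%) and 6447 lower (32.9%), so a call by itself is common. The median change of tested probe sets was -0.09. Of the 7 member probe sets 1 rose, 4 fell and 2 did not pass.

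Arf5 rose with age. The change was 2.75 ± 0.21 (SE, adjusted p = 3.93e-06, limma), and it was 2.999 between the knockout arrays and 2.50 between the wild-type arrays. Both probe sets of Zfp503 fell with age. The change was -1.51 ± 0.10 for 1423835_at (SE, limma adjusted p = 2.62e-06) and -1.14 ± 0.20 for 1423836_at (SE, limma adjusted p = 8.85e-04). For 1423835_at the change was -1.55 between the knockout arrays and -1.47 between the wild-type arrays, and for 1423836_at it was -1.45 and -0.83. On the values as deposited, whose median change is 0.48, the change of 1423836_at was -0.42 (adjusted p = 0.0990).

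The probe sets of Rbm28, opposite between genotypes, went the same way with age. Both fell, with changes of -0.66 ± 0.12 for 1452091_a_at (SE, limma adjusted p = 0.00135) and -0.57 ± 0.19 for 1426513_at (SE, limma adjusted p = 0.0246). The change was -0.49 between the knockout arrays and -0.82 between the wild-type arrays for 1452091_a_at, and -0.41 and -0.72 for 1426513_at. Neither passed on the values as deposited, where the differences between ages were -0.17 and 0.17 against a median of 0.48, or without genotype as a block (adjusted p = 0.104 and 0.0854). That of 1426513_at also missed the threshold without a filter (adjusted p = 0.0537), with a common trimmed mean (-0.24, adjusted p = 0.310) and without the wild-type E9.5 array (-0.35, adjusted p = 0.270), the wild-type E12.5 array (adjusted p = 0.115) or the knockout E12.5 array (adjusted p = 0.106).

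Neither tested probe set of 3830406C13Rik passed, with changes of 0.31 ± 0.16 for 1436388_a_at (SE, adjusted p = 0.130) and -0.29 ± 0.25 for 1434550_at (SE, adjusted p = 0.354). The first passed where the arrays were not quantile-normalized, at 0.99 as deposited (adjusted p = 1.99e-04) and 0.58 with a common trimmed mean (adjusted p = 0.0137). Over all genes with at least 2 tested probe sets, the age change of the 2 brightest differed in sign in 30.5%. That was so for 3830406C13Rik, and not for Rbm28 or Zfp503.

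**Figure D4:**
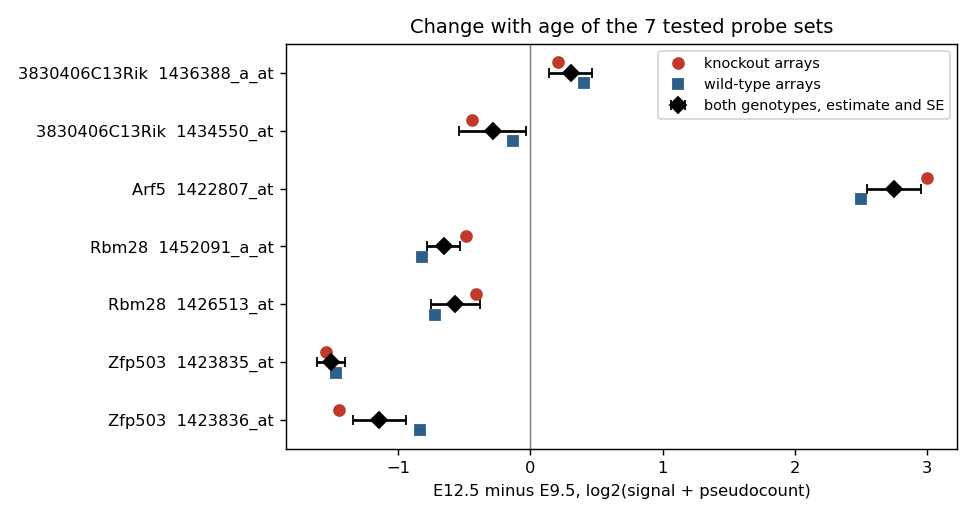
Change from E9.5 to E12.5 on the log2(signal + pseudocount) scale for the 7 tested probe sets, with the knockout arrays as circles, the wild-type arrays as squares, and diamonds with bars for the estimate and SE over both genotypes. Arf5 lies at 2.75, the Zfp503 probe sets at -1.51 and -1.14, the Rbm28 probe sets at -0.66 and -0.57, and those of 3830406C13Rik at 0.31 and -0.29.

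The other genes around the targeted loci were examined next. Within 60 measured genes of Fezf1 or Fezf2 lie 199 genes, of which 123 were tested. The window limits take in the known places of the members, so their lying inside is fixed by the choice. The members are the only 4 that passed. Without them, 119 genes were tested and limma called 0, and 12 had an unadjusted p under 0.05 (10.1%), against 4.58% of the 10972 tested genes outside both windows and 4.69% of all tested genes. The median absolute mean difference was 0.10 in the windows without the members and 0.08 outside them. The share of all genes at least 2-fold apart with the brighter array above the median was 1.62% at E9.5. It was 1.91% at E10.5, and at E12.5 it was 0.555%. In the windows 3830406C13Rik met this at all 3 ages and Arf5 at E9.5 and E10.5, and no other gene met it at more than 1 age.

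Among the 10 nearest genes on each side of Fezf2, 14 were tested and 6 had an unadjusted p under 0.05 (42.9%), 3830406C13Rik included. Pxk, Pdhb and Kctd6 were on the lower side, and Thoc7 and Oxsm on the higher side. The next band, 11 to 30 genes away, held 4 of 19 (21.1%), the band of 31 to 60 held 1 of 19 (5.26%), which is Zfp503, and the rest of chromosome 14 held 25 of 331 (7.55%). Without the E9.5 pair the count nearest to Fezf2 was 3 of 14. On the values as deposited it was 4 of 14, all 4 higher in the knockout, beside 2942 of all 11078 tested genes. Over 10 alternatives this count ran from 3 to 7. Around Fezf1 the nearest band held 2 of 10, Ptprz1 and Cadps2, both on the lower side. The next bands held 2 of 21 (Arf5 and Rbm28) and 1 of 40, and the rest of chromosome 6 held 20 of 472 (4.24%). The band limits also take in the known places of the members, so shares that count a member are raised by the choice. No test of these shares was made, and none of these genes other than the members passed after adjustment (adjusted p of 0.953 or above).

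**Figure D5:**
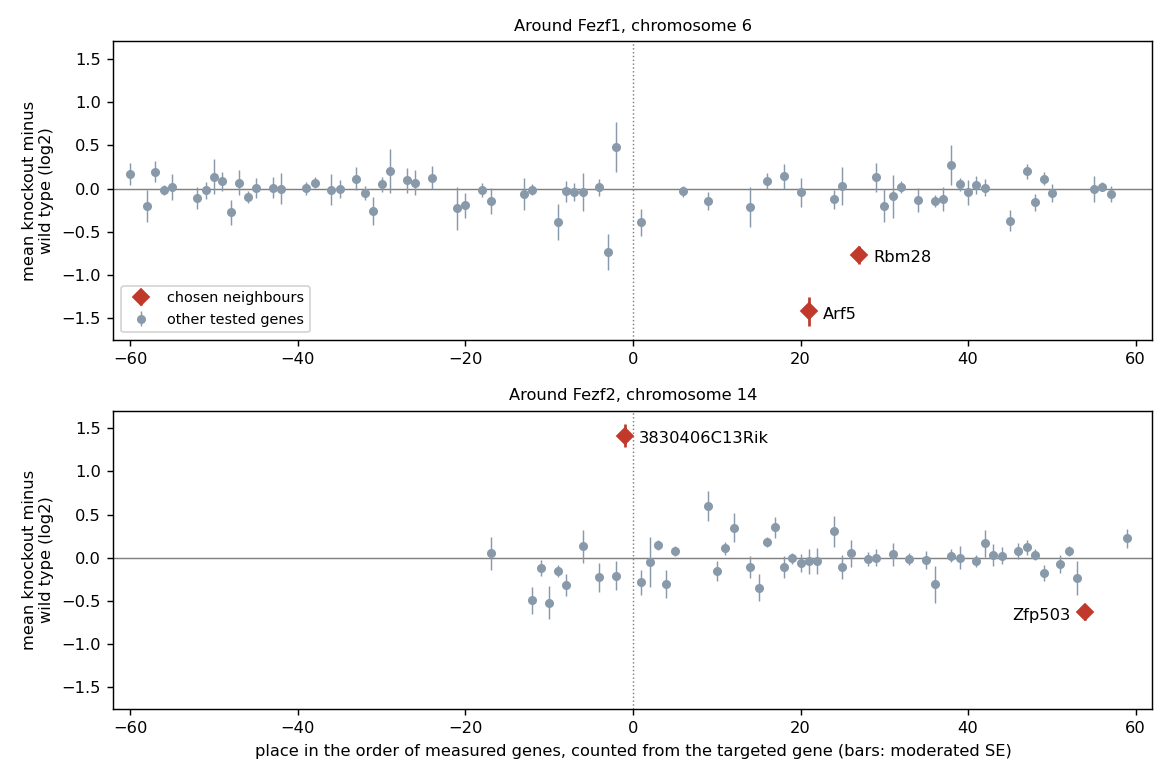
Mean knockout minus wild-type difference (log2, bars are limma's moderated SE) of the tested genes within 60 measured genes of Fezf1 (above) and Fezf2 (below), against their place in the gene order. The diamonds are the members: 3830406C13Rik at 1.41 beside Fezf2, Zfp503 at -0.63, and Arf5 and Rbm28 at -1.42 and -0.77 on one side of Fezf1.

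The genes nearest to the targeted loci include related pairs, one at each locus. Cadps2 and Cadps, which encode priming factors of dense-core vesicles, are each 1 place from their targeted gene, Cadps2 from Fezf1 and Cadps from Fezf2. Cadps2 differed by -0.20, -0.38 and -0.59 in order of age and Cadps by -0.05, -0.55 and -0.25. Ptprz1 and Ptprg, receptor tyrosine phosphatases of 1 subfamily, lie 3 and 2 places from Fezf1 and Fezf2. Ptprz1 differed by -0.81, -1.40 and 0.01, and Ptprg by -0.29, -0.68 and 0.35. None of the 4 passed across ages.

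The remaining close neighbours stood as follows. On 1 side of Fezf1, the long non-coding gene 4930554P06Rik and Wnt16 were under the filter, Fam3c differed by at most 0.11 at any age, and Aass, an enzyme of lysine breakdown, differed by 1.15, 0.50 and -0.20. On its other side Rnf133, Rnf148, Slc13a1 and Iqub were under the filter. Near Fezf2, Oit1 and Fhit were under the filter and Cfap20dc differed by -0.13, -0.52 and -0.02. Synpr, a synaptic vesicle protein, differed by 0.68, -0.73 and -0.10, Thoc7 by 0.15, 0.14 and 0.16, Atxn7 by -0.41, 0.06 and -0.57, and Psmd6 by 0.07, 0.12 and 0.04.

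The relatives and partners of each member were counted in lists chosen with earlier results of these data known. Some listed genes lie in the windows themselves, among them Rarb, 12 places from Fezf2. Foxp2, Dlx5 and Copg2 lie 27, 52 and 57 places from Fezf1. Among Arf GTPases other than Arf5, limma called 0 of 5 tested genes between genotypes (0 at an unadjusted p under 0.05), against 8 of 11097 over all genes. Their mean differences were -0.01 for Arf1, 0.12 for Arf2, 0.14 for Arf3, -0.04 for Arf4, the closest relative of Arf5, and 0.01 for Arf6. With age, Arf1, Arf2 and Arf4 rose by 0.60, 1.06 and 0.64 while Arf3 and Arf6 fell, with changes of -0.87 and -1.02. At gene level the age test called 25.7% of genes higher and 37% lower, with a median change of -0.15.

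Of 17 tested exchange factors and GTPase-activating proteins of Arfs, limma called 0 between genotypes (0 at an unadjusted p under 0.05), and their median mean difference was -0.01. With age 2 rose, the exchange factor Cyth2 by 1.23 and Psd3 by 0.55, and 8 fell, Asap1 and Acap2 among them (-0.64 and -0.57). On the values as deposited the split was 7 higher and 0 lower, where 49.1% of all tested genes were higher and 14.9% lower. Of 16 subunits of the coats that Arfs recruit, 0 passed between genotypes (0 at an unadjusted p under 0.05), with a median of -0.02. With age 6 rose, led by Ap1s1 of the AP-1 coat (1.30) and Copg2 of the COPI coat (0.97), and 5 fell, led by Gga2, a coat adaptor of the trans-Golgi (-1.35). Over all genes the age test called 25.7% higher and 37% lower, beside 37.5% and 31.25% of these 16.

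Beside Rbm28, 25 genes of the nucleolus and ribosome assembly were tested and 0 passed between genotypes (1 at an unadjusted p under 0.05, Nop58 with -0.21), with a median of -0.02. With age 22 of these 25 fell and 1 rose, against 37% and 25.7% of all genes. Among those that fell, the change was -1.43 for the box C/D protein gene Nop56, -1.11 for nucleolin (Ncl), -0.86 for nucleophosmin (Npm1) and -1.95 for Rrs1, a factor of large-subunit assembly. Nop58 was the gene that rose, by 0.30. On the values as deposited 20 fell and 2 rose, against 14.9% and 49.1% of all genes, and with a common trimmed mean 22 fell and 1 rose. The median change of these 25 was -1.16, and that of Rbm28 was -0.66.

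Beside Zfp503, 8 genes of its family and of corepressors were tested and limma called 0 between genotypes (0 at an unadjusted p under 0.05), with a median of 0.03. In fly the relatives of Zfp503 act with the corepressor Groucho, whose mouse counterparts are the Tle genes. With age Rcor2 and Hdac2 rose by 1.39 and 0.75, and Tle3 and Hdac1 fell, with changes of -0.39 and -0.31. On the values as deposited 5 of the 8 rose and 0 fell, against those shares of 49.1% and 14.9% over all genes. Zfp703, the closest relative of Zfp503, had differences of -0.01, -0.09 and 0.10, and its age change of -0.19 did not pass (adjusted p = 0.307), while on the values as deposited it was 0.50 (adjusted p = 0.0219). Of 14 other genes of the striatum and ganglionic eminence 0 passed between genotypes (1 at an unadjusted p under 0.05, Ebf1 with 0.61), and their median mean difference was 0.08. With age 9 of these 14 rose and 4 fell, against 25.7% and 37% of all genes. Dlx1 and Bcl11b, transcription factor genes of GABAergic and striatal neurons, rose by 5.08 and 4.31, while Rarb, a retinoic acid receptor of the striatum, fell with a change of -1.69. With values as deposited 9 rose and 1 fell, against 49.1% and 14.9% of all genes.

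Genes with the most similar profiles over the 6 arrays were listed for each member by Pearson's r on the log2 scale. These correlations rest on 6 arrays that share age and scaling, and they carry no test. The members were chosen for a genotype difference, so genes picked for likeness to them tend to share its direction by that choice. For 3830406C13Rik they were Ift81, Tcf12 and Ano1 (r of 0.973, 0.967 and 0.952), and only 3 tested genes exceeded 0.95. All 3 were higher in the knockout at every age. For Arf5 they were Dpf1, Qpctl and Kifbp (0.984, 0.984 and 0.982), with 38 genes above 0.95, and Dpf1 differed between genotypes by -1.23, -0.84 and -0.57. For Rbm28 they were Sv2b, Naaa and the LIM-homeobox gene Lhx5 (0.979, 0.979 and 0.960), with 5 genes above 0.95. For Zfp503 they were Stxbp2, 3110009E18Rik and Inpp1 (0.990, 0.989 and 0.988), with 79 genes above 0.95. None of these 12 genes lies on chromosome 6 or 14. Few tested genes do. Besides Fezf1, chromosome 6 held 71 inside its window and 472 outside it, of 11097 tested. Chromosome 14 held 52 and 331 besides Fezf2.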

How the data were processed

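The authors deposited linear intensity values for each probe set, and per the submitters' processing notes MAS5 was used. Its version, target level and detection calls were not given in the sources used here. Trimmed means (2% at each end) ran from 74.3 to 162 between arrays, so intensity was quantile-normalized (limma 3.58.1, R 4.3.3) and taken as log2(signal + 6.50), with the lower quartile of the deposited values as pseudocount. The platform annotation gives 1 symbol to 34958 of 45101 probe sets. A gene takes its brightest probe set. Tests covered those whose mean log2 value exceeded the median (lmFit, eBayes with a trend, Benjamini-Hochberg at 0.05), with age as a block for genotype, leaving 2 residual degrees of freedom, and genotype as a block for age. The residual spread is that of the genotype difference between ages, so no p-value here measures a spread between replicates. eBayes moderates it with the other tested features, which gave a median of 9.2 total degrees of freedom in the genotype fit of genes. Gene order came from RefSeq through Entrez identifiers (113 genes by symbol).

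The members and lists were chosen with earlier results of these data known. Named genes were all probe sets of the members and targeted genes, the 5 measured genes nearest on each side of each target, genes of the windows that passed or were 2-fold apart at 2 ages, the 3 genes most alike to each member, list genes that passed a test, and Arf1 to Arf6 and Zfp703. Other genes were named after their values were seen. Alternatives covered scaling, pseudocount, filter, variance trend, blocks, probe set choice and leaving out arrays.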

Additional observations from a re-analysis of the deposited data

Results flagged for a closer look

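Probe sets whose genotype difference changed sign between ages were picked out among those of the 4 genes. For 1446135_at of 3830406C13Rik the knockout minus wild-type difference was 1.06, -0.44 and -0.41 in order of age, on arrays whose signals all lay under 10 and under the filter for tested probe sets. For 1423836_at of Zfp503 it was 0.059, -0.0021 and -0.56. The difference between ages was not tested in either case, since each age has 1 array per genotype.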

How the results depend on the processing

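How many of the 4 genes pass the genotype fit depends on the settings: 4 with quantile normalization, with the pseudocount at the median or without the E9.5 pair, 3 with the filter at the upper quartile, 2 as deposited, 1 with a common trimmed mean, with pseudocount 1 or without the E10.5 pair, and 0 without a filter, a variance trend or an age block, with the mean of a gene's probe sets or without the E12.5 pair. The cause was not tested. The number of genes called, 8, was 20 as deposited, 2 with a trimmed mean or the mean of probe sets, 1 with pseudocount 1 or no filter, and 0 by limma without a trend (544 at an unadjusted p under 0.05) or an age block (24), and 0 to 72 when an age pair was left out. The number of probe sets called, 6, was 16 as deposited, 3 with pseudocount 1, 10 with the pseudocount at the median, 2 with no filter, 1 with no trend, 0 by limma without an age block (36 at an unadjusted p under 0.05), and 3 to 17 without a pair. Age calls numbered 11606 and, with fewer probe sets tested at the upper-quartile filter, 7209. They were 5159 higher and 6447 lower, against 10058 and 2455 as deposited and 6281 and 5226 with a trimmed mean. Genes at least 2-fold apart numbered 295 at E9.5 (448 with pseudocount 1, 70 at the median), 348 at E10.5 (138 as deposited, 91 at the median) and 101 at E12.5 (337 as deposited, 158 with a trimmed mean, 154 with pseudocount 1, 31 at the median). Window genes at an unadjusted p under 0.05 numbered 16 of 123, beside 521 of all 11097 tested genes. As deposited they numbered 38 of 124, beside 2942 of all 11078 tested genes. On those values the median knockout minus wild-type difference of tested probe sets was 0.08, 0.26 and 0.21 at the 3 ages. Signs turned for the age change of 1434550_at of 3830406C13Rik (0.42 as deposited, 0.041 with a trimmed mean), that of 1426513_at of Rbm28 (0.17 as deposited), and the mean genotype difference of 1446135_at without the E9.5 pair (-0.43 to 0.33 as pairs were left out) and of 1423836_at of Zfp503 without the E12.5 pair (-0.28 to 0.028). The mean differences of the brightest probe sets kept their sign under all 7 alternatives run for each: 1.22 to 1.58 for 3830406C13Rik, -1.65 to -1.20 for Arf5, -0.83 to -0.57 for Rbm28 and -0.66 to -0.43 for Zfp503. The age changes of Arf5 (2.32 to 3.32) and of 1423835_at of Zfp503 (-1.55 to -1.06) passed under all 14 run for each. The genotype fit pairs the arrays by age, and no further block was possible with 1 array for each genotype and age.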
